A study of Mus musculus with 12 samples.

Results

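The Pax-Six-Eya genes of transcription factors and their coactivators are described here through the 9 members Pax3, Pax7, Six2, Six4, Six5, Eya1, Eya2, Eya3 and Eya4, taken by their exact symbols from the 55335 genes counted in the deposited files. All 9 were among the 22635 genes tested. The sequenced RNA came from muscle stem cells (MuSCs), sorted by their green fluorescence from the hindlimbs of Pax7-ZsGreen mice 3 to 6 months old, with 3 libraries in each of 4 groups. F cells were freshly isolated and lysed at sorting. The other groups were plated on plastic coated with Matrigel and fibronectin in growth medium with FGF and serum: 2d-U cells were cultured for 2 days without compression, 5d-U cells for 5 days without compression, and 2+3d-C cells for 2 days without and then 3 days under a pillar device that presses on the upper cell surface. All groups thus carry the same ZsGreen transgene, which is driven by Pax7 regulatory sequence, so that the sort itself selected cells on Pax7 activity. The study asked what compression does to the state of the cells, and the matched comparison is 2+3d-C against 5d-U, with 2d-U as the starting point of the compression and F as the uncultured reference.

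PAX3 and PAX7 are paired-box transcription factors of muscle progenitors, and PAX7 is the defining factor of adult MuSCs. SIX-family proteins are homeodomain factors that bind muscle gene promoters, and EYA proteins are their coactivators, which do not bind DNA themselves and also have phosphatase activity. In embryonic muscle the SIX-EYA pair acts upstream of Pax3 and of the myogenic regulatory factors Myf5, Myod1 and Myog.

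The libraries held between 12540745 and 62424851 reads on genes. In 4 of them, replicates 1 and 6 of 5d-U and replicates 4 and 5 of F, reads also fell on receptor, defensin and keratin-associated gene families that are silent in muscle, at 0.635 to 7.13 reads per kb of exon, against at most 0.22 in the other 8 libraries. The reads that this density predicts made up the largest shares for Eya2, Pax3 and Six5, at 62.8%, 46.9% and 42.5% in single libraries, and these shares stand beside the values below. All 8 markers of muscle stem cells and myoblasts, Pax7 among them, were detected in every group. Their summed level was 15020 to 16810 counts per megaread (CPM) in 2+3d-C and 2547 to 6626 in the other groups. The sum mostly follows its most abundant genes, and Myod1 alone stood at 4160 to 8463 CPM in 2+3d-C. Of the 8, 5 rose under compression against 5d-U by the edgeR test described below. Myf5, Cdh15 and Itga7 did not pass there (adjusted p = 0.242, 0.203 and 0.438). The F libraries also held endothelial (691 to 978 CPM over 4 genes) and fibroadipogenic (1976 to 5566 CPM over 4 genes) transcripts. These are bulk samples, in which fewer cells of a type and less RNA per cell cannot be told apart. Nothing in the labels says that the 3 libraries of a group came from separate animals or cultures, so the p-values measure the spread between these libraries, which may be technical.

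Of the 9 members, 6 have a window of 300 bases around their transcription start in the RefSeq promoter table of build GRCm38.p6, and those of Pax3, Eya1 and Eya2 are not shown. The windows of 4 are printed because their genes carried the main differences below: Pax7 and Six4, which lay on opposite sides of 5d-U after compression, and Six2 and Eya3, which were both highest after 2 days of culture. Each runs 5′ to 3′ on the strand of its gene, from 250 bases before the start. Capitals mark CCAAT boxes, GC boxes (GGGCGG) and E-boxes (CANNTG), searched on both strands, and no 2 of these matches overlapped.
Pax7: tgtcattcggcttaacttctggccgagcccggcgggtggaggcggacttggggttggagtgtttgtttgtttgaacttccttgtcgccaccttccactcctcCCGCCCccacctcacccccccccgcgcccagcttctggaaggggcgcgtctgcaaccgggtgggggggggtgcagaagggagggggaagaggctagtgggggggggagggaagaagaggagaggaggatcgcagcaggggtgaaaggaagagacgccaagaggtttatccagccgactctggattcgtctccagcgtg
Six2: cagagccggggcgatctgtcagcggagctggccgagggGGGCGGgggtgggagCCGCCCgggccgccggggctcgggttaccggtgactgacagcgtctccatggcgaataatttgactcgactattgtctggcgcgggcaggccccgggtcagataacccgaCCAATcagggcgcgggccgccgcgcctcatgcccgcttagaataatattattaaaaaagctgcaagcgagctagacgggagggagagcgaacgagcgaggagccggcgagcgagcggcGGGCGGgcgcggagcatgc
Six4: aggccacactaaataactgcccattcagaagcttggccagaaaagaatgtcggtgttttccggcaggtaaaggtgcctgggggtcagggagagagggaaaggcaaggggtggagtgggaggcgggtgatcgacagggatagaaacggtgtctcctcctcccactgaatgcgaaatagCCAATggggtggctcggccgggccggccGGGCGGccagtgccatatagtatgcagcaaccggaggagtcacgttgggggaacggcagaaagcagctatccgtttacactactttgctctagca
Eya3: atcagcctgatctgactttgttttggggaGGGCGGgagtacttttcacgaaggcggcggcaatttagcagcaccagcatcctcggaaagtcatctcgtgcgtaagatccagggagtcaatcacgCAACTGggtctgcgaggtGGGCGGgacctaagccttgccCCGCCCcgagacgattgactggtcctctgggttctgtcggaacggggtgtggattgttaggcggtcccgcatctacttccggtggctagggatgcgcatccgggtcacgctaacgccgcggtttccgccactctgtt
The windows lie at chr4:139832919-139833218 (Pax7), chr17:85688205-85688504 (Six2) and chr12:73113376-73113675 (Six4) on the minus strand and at chr4:132638796-132639095 (Eya3) on the plus strand. The Pax7 start lies 560 bases inside the gene as the files bound it, and the other 3 lie within 59 bases of that bound. A GC box stood in all 4 windows, 1 in Pax7, 1 in Six4 and 3 each in Six2 and Eya3, against 35.7% of the 32851 promoter windows in the table. A CCAAT box stood in the Six2 and the Six4 windows and in 37.4% of all windows. Among the 4, only the Eya3 window held an E-box, the sequence bound by MyoD and its relatives, which 72.3% of all windows hold. The letters TCAGGTT (the MEF3 site bound by SIX-family proteins), GTGGGAA (the RBPJ site of Notch targets), TAATTA (a homeodomain core) and TATAAA were in none of the 4, nor in those of Six5 and Eya4, against 4.07%, 6.38%, 5.29% and 13.6% of all windows. These matches describe letters only. The members of a family are similar in sequence. Runs of bases shared exactly were sought only between transcripts of members of the same family, in an earlier GENCODE release than that of the counts. The longest was 32 bases (Six2 and Six4) and that of Pax3 and Pax7 was 26 bases, below the read length of 75 bases. The exons of no member overlapped another gene.

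Levels are given as RPKM, reads per kb of exon per megaread of library size as scaled by TMM (a trimmed mean of M-values), so that they can be compared between genes. The member with the highest mean was Eya2 for F, Six2 in both uncompressed cultures and Pax7 for 2+3d-C. The mean of Six2 was 18.1 ± 3.51 (SD, n = 3) in 2d-U and 8.05 ± 3.97 for 5d-U. The mean of Eya2 was 7.32 ± 4.59 for F. The mean of Pax7 was 13.3 ± 2.56 for 2+3d-C. The lowest group mean of any member was that of Eya4 for 2d-U, at 0.0604 ± 0.0452. Pax3 and Pax7 were highest in 2+3d-C without overlap with any other group, Six4 was lowest there without overlap, and Six2 and Eya3 were highest in 2d-U without overlap, while the neighbours in the order of Six5, Eya1 and Eya4 overlapped throughout.

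**Figure D1:**
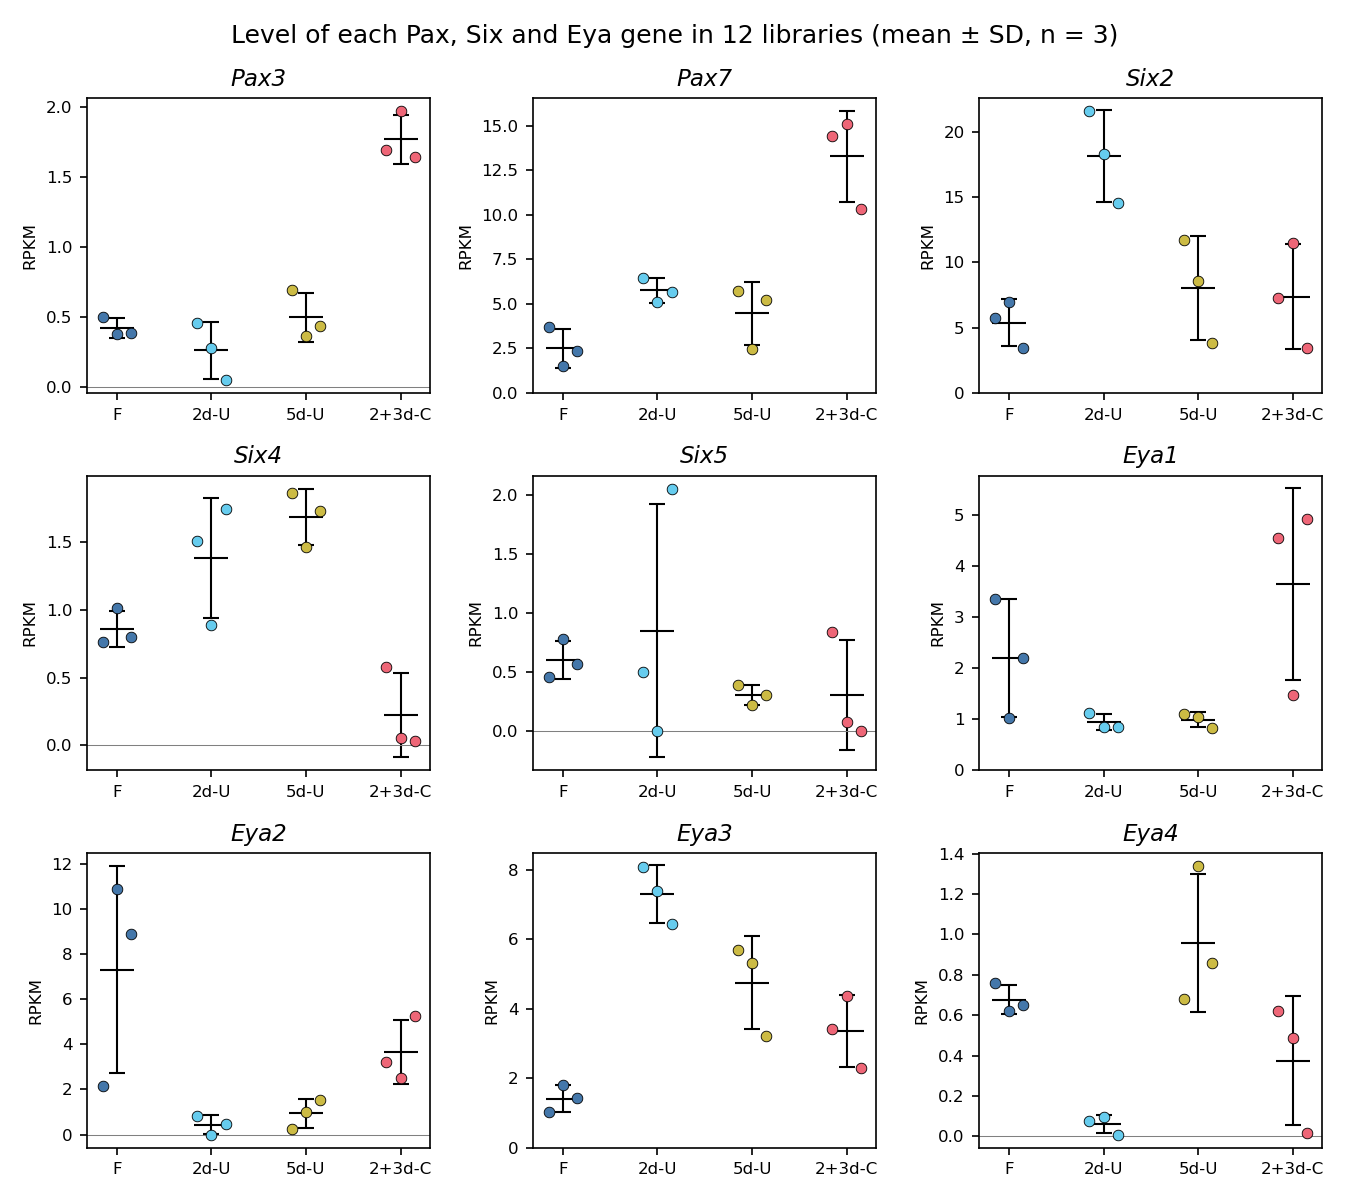
RPKM of each of the 9 genes (vertical axes, each with its own scale) in the 4 groups; points are libraries, the long dash is the mean and the bars are the SD of 3 libraries. Pax3 and Pax7 stood highest and Six4 lowest in 2+3d-C, Six2 and Eya3 were highest in 2d-U, and Eya4 was near 0 for 2d-U and in 1 library of 2+3d-C.

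Differences were tested in 1 edgeR quasi-likelihood fit over the 12 libraries, with p-values adjusted by the Benjamini-Hochberg method over the 22635 genes and a gene called at an adjusted p under 0.05. Against 5d-U, 3 of the 9 members were called in 2+3d-C beside 22.6% of all genes tested, with Pax7 and Eya1 among the 9.14% called higher and Six4 among the 13.4% called lower. Against 2d-U, 3 were called in 2+3d-C beside 24.6% of all genes, with Pax3 and Eya1 among the 16% called higher and Six4 among the 8.63% called lower. Against F, 1 was called in 2+3d-C beside 6.4%, Pax7, one of the 1.94% called higher. The largest number, 5, was called between 2d-U and F beside 43.8% of all genes, with Pax7, Six2 and Eya3 among the 10.6% higher and Eya2 and Eya4 among the 33.3% lower in 2d-U. Between 5d-U and F 1 was called beside 20.5%, Eya3, one of the 11.6% called higher. Between 5d-U and 2d-U none was called by edgeR, beside 2.12%, 1 member (Eya4) had an unadjusted p under 0.05, and DESeq2 called 1, Eya4. Libraries did not overlap for 6 of the 9 members in 2+3d-C against 5d-U (42.4% of all genes), 7 against 2d-U (35.6%) and 4 against F (27.1%), and for 3 members between 5d-U and 2d-U (37.1%), 5 between 2d-U and F (52.5%) and 4 between 5d-U and F (44.2%). No test set these counts against their background. The median log2 fold change of the members was 0.04 for 2+3d-C against 5d-U, where that of all genes was -1.05, and 1.21 for 2+3d-C against 2d-U, where that of all genes was 0. Genes without reads in either 2d-U or 2+3d-C, such as Ptprc, enter the latter median at 0. It stayed at 0 without TMM and does not describe expressed genes alone. Replicates 1, 2 and 6 of 5d-U had reads on 39063, 23751 and 33996 genes, and the libraries of 2+3d-C on 15365 to 20724. The genes tested include some, such as Pax2 and Six3, with 0 reads in every library of 2d-U and 2+3d-C. A mean of at least 5 CPM was reached by 10439 genes. With the test limited to that level, 4683 genes differed under compression from 5d-U, Pax7, Six4 and Eya1 among them. From 2d-U 4516 differed. The shares called were thus larger at that level than the 22.6% and 24.6% over all genes. The part of the reads on otherwise silent genes in the median and in the shares called over all genes was not tested. The comparisons share groups and are not independent. Without TMM the log2 fold changes against 2d-U in 2+3d-C moved by -0.44 on average, so that 44.7% rather than 64.9% of the genes called were higher, and the members called there were then Six2, Six4 and Eya3, all lower. In the same way the share of called genes that were higher went from 30.2% to 10.4% in 2+3d-C against F and from 88.5% to 73.7% in 5d-U against 2d-U. Without the 4 libraries with reads on silent families, which leaves 1 library each in 5d-U and F, each of the 13 edgeR calls of a member was lost. The values of Pax7 against 5d-U, Six4 against 5d-U and Eya3 against F in 2d-U were then 2.44 (adjusted p = 0.0587), -2.68 (0.316) and 2.85 (0.0612) on the log2 scale, with the spread taken from the groups that still had replicates, so that the lone libraries are assumed to vary like them.

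**Figure D2:**
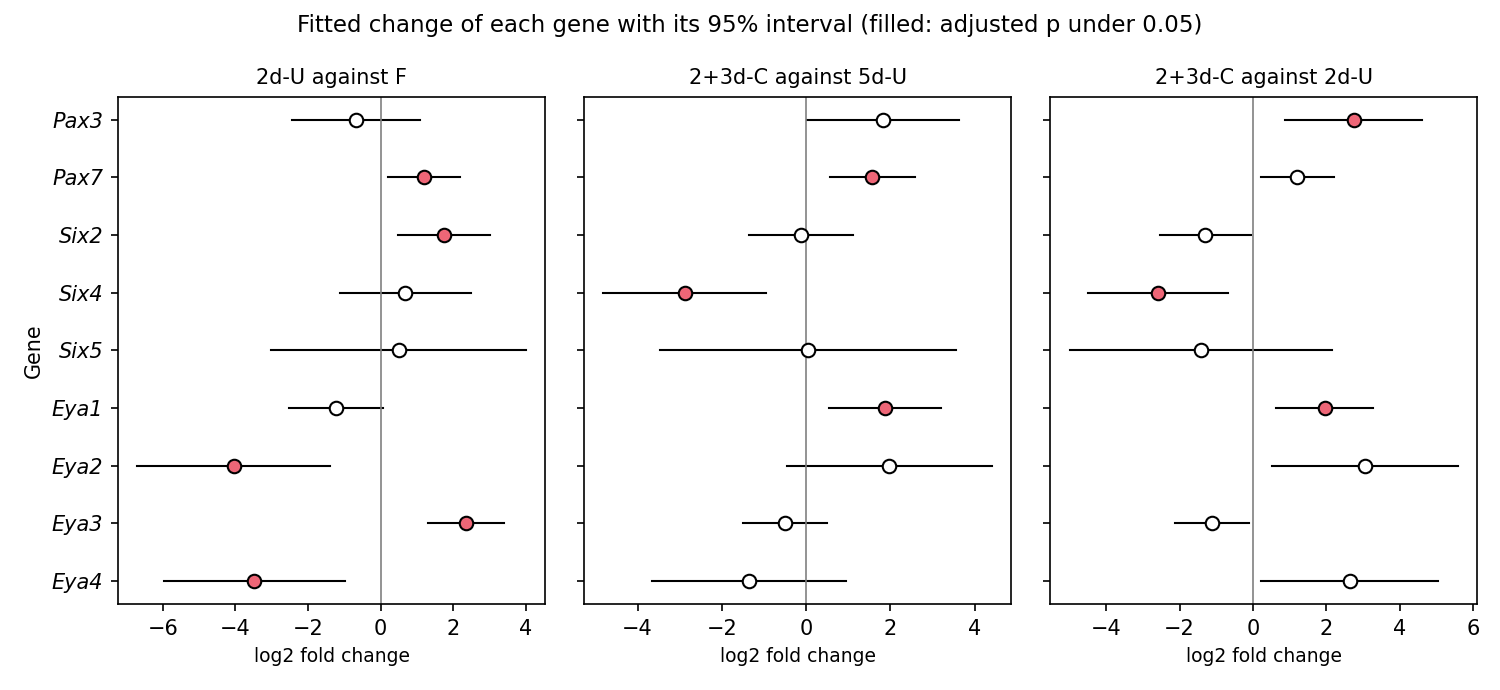
Fitted log2 fold change (horizontal axis) of each gene with its 95% interval in 3 comparisons; filled points had an adjusted p under 0.05. In 2d-U against F Eya3 lies to the right of 0 and Eya2 and Eya4 to the left, and in both comparisons of 2+3d-C Six4 lies to the left and Eya1 to the right.

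Pax7 (ENSMUSG00000028736.13, chromosome 4 of mm10, 139737062 to 139833528, minus strand) rose on compression. Its RPKM was 14.4, 15.1 and 10.3 in replicates 4, 5 and 10 of 2+3d-C. It was 5.75, 2.45 and 5.23 in replicates 1, 2 and 6 of 5d-U. Every compressed library lay above every library of the other groups, whose highest value was 6.47, and replicate 2 of 5d-U lay apart from the other two of its group. Against 5d-U the log2 fold change was 1.57 (SE 0.47, 95% interval 0.56 to 2.57, edgeR adjusted p = 0.0274), a 2.97-fold difference. This call was lost on leaving out any one of 7 libraries (replicates 2 and 6 of 5d-U, the 3 of 2d-U, and replicates 4 and 5 of 2+3d-C), with adjusted p from 0.0502 to 0.103, and the log2 fold change then stayed between 1.27 and 1.84 over all 12 such fits. In 2d-U Pax7 was at 6.47, 5.11 and 5.69, and in F at 3.69, 1.52 and 2.33. The 2d-U libraries lay above those of F without overlap, and F had the lowest mean of the 4 groups. Between 2d-U and F the log2 fold change was 1.20 (SE 0.47, adjusted p = 0.0498), just past the threshold, and 8 of the 12 fits without 1 library ended the call (each without replicates 1 or 6 of 5d-U, any of 2d-U, replicate 4 of 2+3d-C, or replicates 4 or 5 of F, adjusted p 0.0526 to 0.165). Between 2+3d-C and 2d-U it was 1.21 (adjusted p = 0.0723), which did not pass. DESeq2 did not call Pax7 between 2d-U and F, and called it between 2+3d-C and 2d-U. The largest difference of Pax7 was 2+3d-C against F, at a log2 fold change of 2.40 (SE 0.48, 95% interval 1.37 to 3.44, adjusted p = 0.0151), which was lost without replicate 4 (0.0784) or 5 (0.0676) of F.

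Pax3 (ENSMUSG00000004872.15, chromosome 1, 78101267 to 78197134, minus strand), the paralog that marks progenitors of the embryo, was expressed at a much lower level and showed the same ranking of the compressed libraries. Its RPKM was 1.70, 1.97 and 1.65 for 2+3d-C, from 560, 101 and 223 reads. It was 0.696, 0.367 and 0.435 for 5d-U, 0.458, 0.279 and 0.0537 for 2d-U, and 0.504, 0.379 and 0.384 for F. The 3 compressed libraries lay close together and above all 9 others. Of the reads on Pax3 in replicate 1 of 5d-U 23.8%, and in replicates 4 and 5 of F 42.6% and 46.9%, were no more than the density on the silent families predicts, and the mean in F was 0.306 after these were subtracted. Against 2d-U Pax3 was higher in 2+3d-C by a log2 fold change of 2.75 (SE 0.87, 95% interval 0.88 to 4.61, adjusted p = 0.0336). This call held without replicate 10 of 2+3d-C or replicate 1 of F and was lost without any one of the other 10 libraries (adjusted p up to 0.15). Against 5d-U the log2 fold change was 1.83 (95% interval 0.02 to 3.63, adjusted p = 0.112) and that against F was 2.07 (adjusted p = 0.112), which did not pass, while DESeq2 called both (adjusted p = 0.0119 and 0.0314).

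Six4 (ENSMUSG00000034460.9, chromosome 12, 73099609 to 73113456, minus strand), a SIX-family factor of muscle development, was the member that fell on compression. Its RPKM was 0.579, 0.0556 and 0.0337 in replicates 4, 5 and 10 of 2+3d-C, from 335, 5 and 8 reads. In 5d-U it was 1.86, 1.46 and 1.73, from 384 to 465 reads. In 2d-U it was 1.51, 0.884 and 1.74, and in F 0.763, 1.01 and 0.797, where the silent families predict 22.6% of the reads in replicate 5. All 3 compressed libraries lay below the 9 others, but replicate 4 lay far above the other two of its group. Six4 had a log2 fold change of -2.88 against 5d-U (SE 0.90, 95% interval -4.81 to -0.96, adjusted p = 0.0332) and -2.59 against 2d-U (SE 0.89, 95% interval -4.50 to -0.69, adjusted p = 0.0462). Without replicate 4 of 2+3d-C these became -5.28 (adjusted p = 0.000537) and -4.99 (adjusted p = 0.000621), and against F the change, -1.91 with all libraries (adjusted p = 0.13), was then called too. The call against 5d-U was lost without any library of 5d-U, without replicate 5 or 10 of 2+3d-C, or without replicate 1 of F (adjusted p 0.0519 to 0.0757), and the call against 2d-U without any one library other than replicate 4 of 2+3d-C (0.054 to 0.114).

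Six2 (ENSMUSG00000024134.11, chromosome 17, 85684277 to 85688274, minus strand), known as a factor that keeps kidney progenitors undifferentiated, was high after 2 days of culture. Its RPKM was 21.6, 18.3 and 14.6 for 2d-U. It was 11.7, 8.56 and 3.85 for 5d-U, 7.23, 11.5 and 3.41 for 2+3d-C, and 5.71, 6.96 and 3.45 for F. Each 2d-U library lay above all others, and 5d-U, 2+3d-C and F overlapped. Six2 rose between F and 2d-U by a log2 fold change of 1.76 (SE 0.59, 95% interval 0.49 to 3.02, adjusted p = 0.0314), which was lost without any one library of either group (adjusted p 0.0535 to 0.11). Against 2d-U it was at -1.30 for 2+3d-C (adjusted p = 0.116) and at -1.17 for 5d-U (adjusted p = 0.162), neither of which passed. Between 2+3d-C and 5d-U its log2 fold change was -0.13 with a 95% interval from -1.36 to 1.10, which leaves room for a difference in either direction. Six5 (ENSMUSG00000040841.5, chromosome 7, 19094594 to 19098549, plus strand), a neighbour of the myotonic dystrophy locus, was low and unevenly detected, with 0 to 278 reads a library. Its RPKM in 2d-U was 0.503, 0 and 2.05, in 2+3d-C 0.842, 0.0803 and 0, in 5d-U 0.391, 0.221 and 0.309, and in F 0.457, 0.78 and 0.572. The silent families predict 42.5% of the Six5 reads in replicate 1 of 5d-U and 20.7% and 31.5% of those in replicates 4 and 5 of F. The spread within 2d-U and within 2+3d-C covered the other groups, and no comparison of Six5 passed the test (adjusted p from 0.583 to 0.987).

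Eya3 (ENSMUSG00000028886.15, chromosome 4, 132638987 to 132724765, plus strand), a broadly expressed EYA coactivator, was the member whose change between F and culture was the firmest. Its RPKM was 1.02, 1.81 and 1.43 for F. It was 8.07, 7.39 and 6.42 for 2d-U, 5.69, 5.33 and 3.21 for 5d-U, and 3.40, 4.36 and 2.31 for 2+3d-C. The cultured groups all lay above F, and 2d-U lay above the other cultured groups, which overlapped each other. Between F and 2d-U Eya3 rose by a log2 fold change of 2.36 (SE 0.49, 95% interval 1.31 to 3.41, adjusted p = 0.00295), the only call of a member that no single library ended (adjusted p 0.00171 to 0.0161). Between F and 5d-U it rose by 1.74 (SE 0.48, adjusted p = 0.0177), a call lost without replicate 1 (0.0837) or 2 (0.0736) of 5d-U or replicate 1 (0.18) or 5 (0.0715) of F. In 2+3d-C it was at 1.24 above F (adjusted p = 0.103), at -1.12 against 2d-U (adjusted p = 0.0964) and at -0.50 against 5d-U (95% interval -1.50 to 0.50, adjusted p = 0.412), none of which passed.

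Eya1 (ENSMUSG00000025932.14, chromosome 1, 14168954 to 14310235, minus strand), a coactivator needed in muscle, kidney and ear development, rose on compression. Its RPKM was 4.56, 1.49 and 4.92 for 2+3d-C. It was 1.10, 1.05 and 0.839 for 5d-U, 1.12, 0.848 and 0.854 for 2d-U, and 3.36, 1.04 and 2.20 for F. The compressed libraries lay above both uncompressed cultures and overlapped F, and replicate 5 was the low one of its group. Eya1 had a log2 fold change of 1.88 against 5d-U (SE 0.62, 95% interval 0.55 to 3.20, adjusted p = 0.0421) and 1.96 against 2d-U (SE 0.62, 95% interval 0.63 to 3.28, adjusted p = 0.033). The first was lost without any one library other than replicate 5 of 2+3d-C and replicates 1 and 4 of F (adjusted p up to 0.142), and the second without replicates 1 or 2 of 5d-U, any of 2d-U, replicates 4 or 10 of 2+3d-C, or replicate 5 of F (up to 0.13). Both were also lost without TMM, without a filter on low counts, with the replicate number as a block and with the 2 groups alone. The first was lost too with a model term for reads on silent families. Against F the value in 2+3d-C was 0.73 (95% interval -0.55 to 2.02, adjusted p = 0.405).

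Eya2 (ENSMUSG00000017897.18, chromosome 2, 165595032 to 165771727, plus strand) had its highest mean in freshly isolated cells. Its RPKM was 2.15, 10.9 and 8.91 for F, 3.23, 2.53 and 5.28 for 2+3d-C, 0.264, 1.01 and 1.53 for 5d-U, and 0.836, 0 and 0.479 for 2d-U. Of the 18 reads on Eya2 in replicate 1 of 5d-U, 62.8% were no more than the silent families predict. Both F and 2+3d-C lay above both uncompressed cultures, and replicate 1 of F was low in its group and below every library of 2+3d-C. Between F and 2d-U Eya2 fell by a log2 fold change of 4.05 (SE 1.24, 95% interval -6.70 to -1.40, adjusted p = 0.022), lost without replicate 3 of 2d-U (0.0542) or replicate 4 (0.0631) or 5 (0.0552) of F. Its log2 fold change was 1.97 in 2+3d-C against 5d-U (95% interval -0.46 to 4.41, adjusted p = 0.182) and, with 2d-U as the reference, 3.06 (adjusted p = 0.0737), and neither passed although the libraries did not overlap. In 5d-U against F it was -2.96 (adjusted p = 0.0956), and in 2+3d-C against F it was -0.99 (95% interval -3.36 to 1.37, adjusted p = 0.558). Eya4 (ENSMUSG00000010461.15, chromosome 10, 23102963 to 23350786, minus strand), known from hearing and heart muscle, was nearly absent after 2 days of culture, with 38, 23 and 4 reads in 2d-U and an RPKM of 0.0763, 0.0957 and 0.00941. It was at 0.76, 0.621 and 0.65 for F, 0.679, 1.34 and 0.857 for 5d-U, and 0.623, 0.487 and 0.0146 for 2+3d-C. The silent families predict 24.4% of the Eya4 reads in replicate 1 of 5d-U and 26% and 27.8% of those in replicates 4 and 5 of F. All 2d-U libraries lay below all of F and 5d-U, and 2+3d-C was split, with replicate 10 as low as 2d-U. Between F and 2d-U Eya4 fell by 3.48 on the log2 scale (SE 1.17, 95% interval -5.98 to -0.99, adjusted p = 0.031), lost without any library of 2d-U or without replicate 4 or 5 of F (adjusted p 0.0587 to 0.0935). In 5d-U it was 3.98 above 2d-U on the same scale (95% interval 1.44 to 6.54), which did not pass (adjusted p = 0.0829).

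Eya1 and Eya2 had higher means in F and 2+3d-C than in the uncompressed cultures, and so did transcripts of other cell types. The summed level of the 4 glial markers was 185 to 257 CPM in F, 71.8 to 134 for 2+3d-C, 0.523 to 7.92 for 5d-U and 0 to 1.75 for 2d-U. The 4 smooth muscle and pericyte markers stood at 391 to 669 CPM in F and 82.5 to 138 for 2+3d-C, at 2.44 to 8.32 for 5d-U, and all 4 were at 0 reads in every 2d-U library. The 4 endothelial markers stood at 691 to 978 CPM in F, 40.4 to 163 for 2+3d-C, 1.396 to 11.6 for 5d-U and 2.73 to 5.13 for 2d-U. The 4 fibroadipogenic markers stood at 1976 to 5566 CPM in F, 221 to 596 for 2+3d-C, 8.65 to 54.0 for 5d-U and 0.705 to 11.4 for 2d-U, where Pdgfra and Lum were at 0. The 5 immune markers stood at 109 to 202 CPM in F and at most 21.1 elsewhere, with Ptprc at 0 for 2d-U and 2+3d-C. The 6 myofiber markers stood at 24.7 to 2044 CPM in F, and their 154.8 to 1468 CPM in 5d-U lay above the 49.1 to 134 of 2+3d-C and the 42.8 to 77.7 of 2d-U. Of these 6, Acta1, the actin of the sarcomere, was called lower under compression than in 5d-U (log2 fold change -3.88, adjusted p = 0.0275). Its mean in 5d-U was 577 RPKM and that of Ckm, the next highest, was 2.17, so the sums in 5d-U mostly follow Acta1. None of the others was called there: Myh1, Myh2 and Myh7 were lower, and Ckm (1.04) and Myh4 (3.31) were higher. Against 2d-U, 3 of the 6 were called higher in 2+3d-C and none lower. The part of these cells in the levels of Eya1 and Eya2, or of any other member, was not tested.

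The makeup of each family differed between groups, above all among the Eya genes. The summed RPKM of the 4 Eya genes ranged only from 7.64 ± 1.15 for 5d-U to 11.6 ± 3.80 for F, but its makeup differed. Eya3 supplied 83.8% ± 4.49 of it in 2d-U, 61.5% ± 11.9 for 5d-U, 32.2% ± 15.7 for 2+3d-C and 12.5% ± 1.62 for F. Eya2 supplied 57.6% ± 24.7 for F and 32.7% ± 8.23 for 2+3d-C, against 4.81% ± 4.30 for 2d-U. The share of Eya3 for F did not overlap that in any other group, and that in 2+3d-C did not overlap that in 5d-U or 2d-U. Among the Pax genes Pax7 made up most of the sum in every library, from 80.1% to 99.1%, and the sum was 15.1 ± 2.68 for 2+3d-C against 2.93 ± 1.16 for F. Six2 supplied 65.4% to 99.0% of the sum of Six2, Six4 and Six5 in every library, and Six4 supplied 0.478% to 6.69% in 2+3d-C against 13.3% to 29.4% in 5d-U. These shares cover the members alone.

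**Figure D3:**
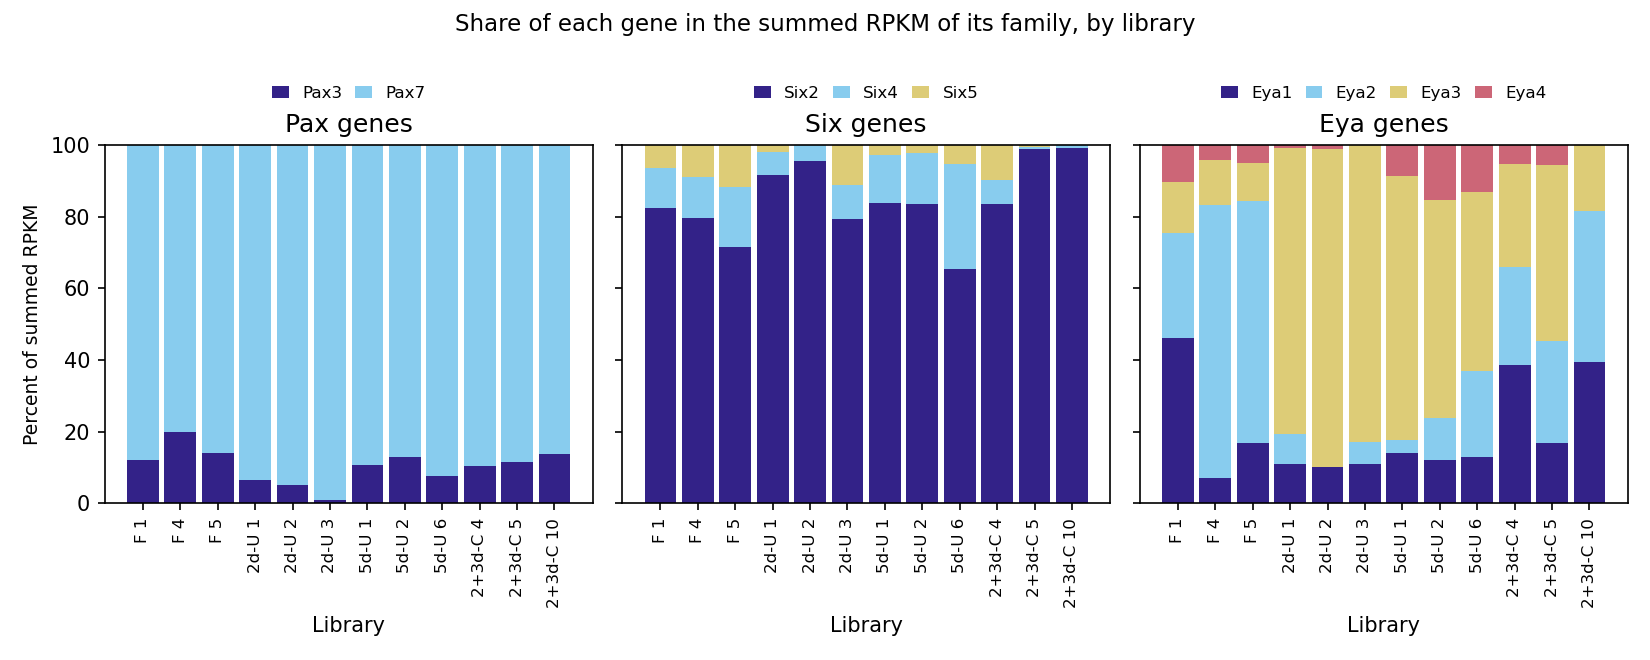
Percent of the summed RPKM of the Pax genes, of Six2, Six4 and Six5 and of the Eya genes (vertical axis) supplied by each gene in each of the 12 libraries (horizontal axis). Eya3 fills most of the Eya bar in 2d-U and 5d-U, at 83.8% and 61.5% on average, and little of it in F, at 12.5%.

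Genes outside the members were read from lists of cofactors, targets and protein partners. Dach1, a corepressor that binds SIX-family proteins, was at 2.13 ± 0.586 RPKM in F, 0.878 ± 1.01 for 2+3d-C and 0.101 ± 0.0576 for 5d-U, and had 0 reads in all 2d-U libraries, and it was called higher after compression than in 2d-U (adjusted p = 0.000816) and lower in 2d-U than in F (adjusted p = 0.000531), while 2+3d-C against 5d-U did not pass (adjusted p = 0.062). Pax1, a paired-box gene of the embryonic sclerotome, was at 0.264 ± 0.245 RPKM in F, 0.0686 ± 0.101 for 5d-U and near 0 elsewhere, and 37.3% to 90.1% of its reads in the libraries with over 2 reads were no more than the silent families predict.

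Among 8 known targets of PAX3 and PAX7, compression against 5d-U gave 3 higher and 1 lower, beside 9.14% of all genes called higher and 13.4% called lower. Fgfr4, an FGF receptor gene that PAX3 binds, was at 94.96, 21.7 and 106 RPKM in 2+3d-C against 3.11 to 8.06 for 5d-U, a log2 fold change of 3.68 (SE 0.64, adjusted p = 0.00118). Dmrt2, a PAX3 target of the embryonic dermomyotome, had a log2 fold change of 2.81 (SE 0.59, adjusted p = 0.0037). Myod1, the master regulator of myogenic commitment, had one of 1.76 (SE 0.43, adjusted p = 0.0101), with 3186 ± 1210 RPKM in 2+3d-C and 943.6 ± 337 for 5d-U. Lbx1, which acts in migrating muscle precursors, was lower by a log2 fold change of -1.59 (SE 0.50, adjusted p = 0.0349). Id3, at 1865 ± 1365 RPKM in 2+3d-C and 1416 ± 1242 for 5d-U, and Itm2a, at 264.9 ± 166.5 and 166.9 ± 130.7, did not pass (adjusted p = 0.611 and 0.343). The median log2 fold change of the 8 was 0.72 against -1.05 over all genes, with the limit on that median given above. In 2+3d-C against 2d-U 5 rose and 1 fell, beside 16% and 8.63% of all genes. Between 2d-U and F 2 of the 8 were higher and 2 lower in 2d-U, beside 10.6% and 33.3% of all genes.

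Of 7 known targets of SIX-EYA complexes, 6 were tested, and the compressed cells differed from 5d-U by 2 higher genes and 1 lower one, beside the same 9.14% and 13.4% of all genes. Gdnf, the neurotrophic factor that the SIX-EYA pair induces in kidney, was at 123, 31.2 and 35.8 RPKM in 2+3d-C and 3.97, 0.484 and 0.812 for 5d-U, a log2 fold change of 5.18 (SE 0.85, adjusted p = 0.000782). Myod1, which is on both lists, was the other higher gene. Myog, which drives differentiation, had 1, 0 and 0 reads in 2+3d-C and 13, 25122 and 33864 for 5d-U, and it was called lower (adjusted p = 0.00314), with replicate 1 of 5d-U far below the other two of its group. Ezr, at 22.5 ± 11.6 RPKM in 2+3d-C and 46.8 ± 25.5 for 5d-U, did not pass (adjusted p = 0.12). Of 7 protein partners of PAX3 and PAX7, 1 rose and 1 fell under compression against 5d-U, beside those same shares, and both belong to the complex that methylates lysine 4 of histone H3 at PAX7 targets. Wdr5 was at 60.7, 52.3 and 55.5 RPKM in 2+3d-C and 17.5 to 31.3 for 5d-U, a log2 fold change of 1.22 (SE 0.36, adjusted p = 0.0267). Ash2l was at 3.63, 5.71 and 2.78 for 2+3d-C and 18.7 to 27.5 for 5d-U, a log2 fold change of -2.45 (SE 0.39, adjusted p = 0.000557). For both genes the 2 groups did not overlap. Carm1, the arginine methyltransferase that modifies PAX7, was at 17.6 ± 8.55 RPKM in 2+3d-C and 7.67 ± 2.46 for 5d-U and did not pass (adjusted p = 0.0655). Nedd4, the ubiquitin ligase reported to act on PAX7, was at 22.2 ± 15.3 and 30.5 ± 11.2 RPKM and did not pass (adjusted p = 0.476). The medians of these lists in 2+3d-C against 5d-U were 0.09 for the targets of SIX-EYA complexes and 0.69 for the partners, and against 2d-U 3 and 1 members of the lists were higher (16% of all genes) and 1 and 1 lower (8.63%).

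**Figure D4:**
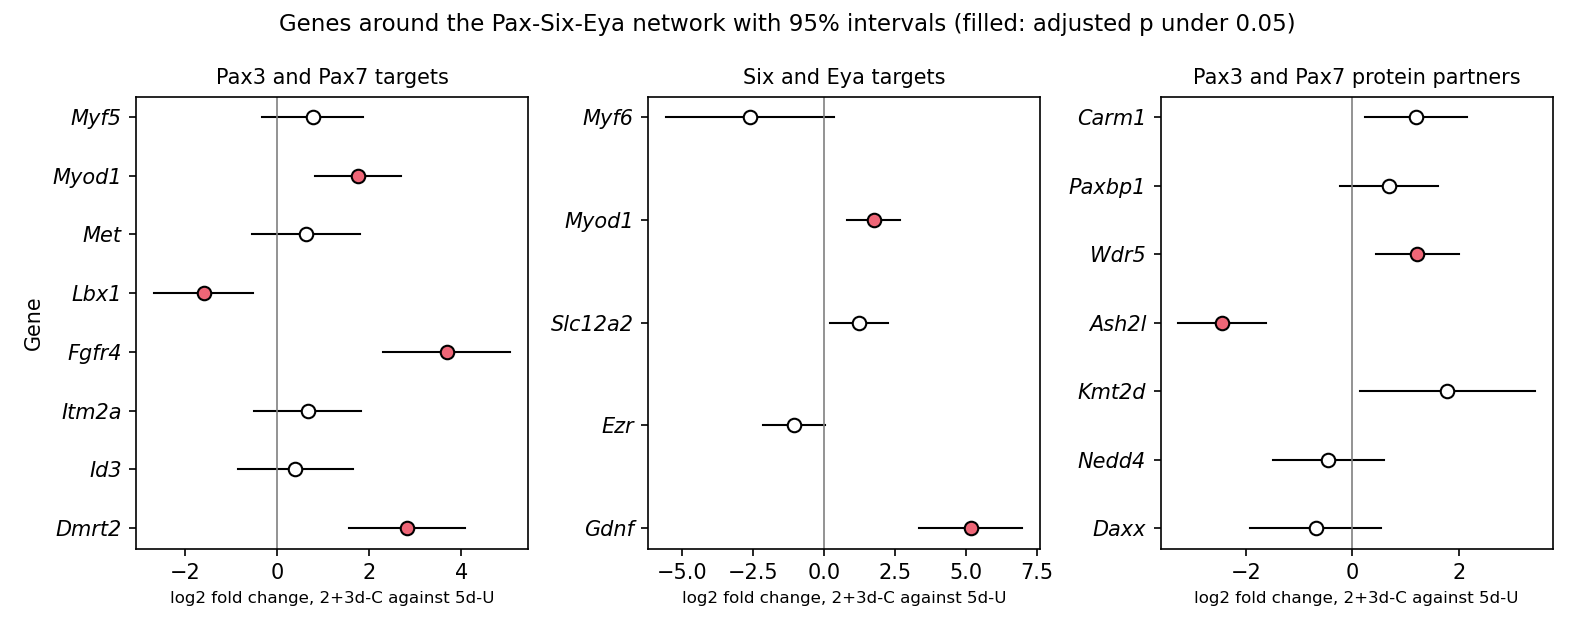
Log2 fold change in 2+3d-C against 5d-U (horizontal axes) with the 95% interval for listed targets and protein partners; filled points had an adjusted p under 0.05, and Myog, at 0 reads in 2 compressed libraries, is left out. Fgfr4, Dmrt2, Myod1, Gdnf and Wdr5 lie to the right of 0 and Lbx1 and Ash2l to the left.

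The genes whose pattern over the 12 libraries was nearest to that of a member were found among 10439 genes whose mean reached 5 CPM, by the root mean square difference of log2 CPM after each gene's mean was removed. For Pax7 they were Tsr2, Srfbp1, Noc4l, Imp4 and Nop56, at a distance of 0.401 to 0.415 log2 units, and Nop56, a component of box C/D small nucleolar particles, was at 1502 ± 430.9 CPM in 2+3d-C and 345 ± 11.98 for F. For Six2 they were Hoxc6, Pcid2, Lrrc45, Prodh and Tbc1d25, at 0.408 to 0.5. For Eya3 the 5 were nearer, at 0.215 to 0.292, and were Dus3l, Retsat, Noa1, Nelfa and Ttc4. These genes share all 12 libraries, and their likeness is a description.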

How the data were processed

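RNA of 12 libraries (SMART-seq v4, single-end reads of 75 bases) was measured. The deposited values are counts per gene, made by the authors with nf-core/rnaseq 1.4.2 and featureCounts 1.6.4 without strand on mm10 with GENCODE M23, and the authors' merged table of the same counts was not used. Depth, in reads on genes, ran from 24577250 to 32782757 (F), 20329459 to 45003574 (2d-U), 20953163 to 30593562 (5d-U) and 12540745 to 62424851 (2+3d-C), and a gene with few reads has the counting error of those reads. In R 4.3.3, genes kept by filterByExpr were scaled by TMM (factors 0.66 to 1.26) and fitted by edgeR 4.0.16 (glmQLFit and glmQLFTest, all 4 groups in 1 fit, limma 3.58.1), with Benjamini-Hochberg adjustment and a threshold of 0.05. Intervals are 95% intervals of the fitted log2 fold change. RPKM used the summed length of merged exons and TMM library sizes. Exons were compared with GenomicRanges 1.54.1, and sequences and figures were made in Python 3.11.15 (pandas 2.3.3, matplotlib 3.10.9). The scripts were tested on simulated data. There, in 2+3d-C against 5d-U, 2 of 100 genes changed 2-fold and 49 of 100 changed 8-fold were called, beside 3 false calls. Only these genes of the 20425 tested there were changed, while 5110 of 22635 were called in the data. The adjustment is stricter where fewer genes change, so these shares do not give the power of the test in the data. A gene that did not pass may still differ. The members, lists and comparisons were chosen with earlier results of these data known. 1 listed gene is not reported here. Named were all members, the genes of each list called in 2+3d-C against 5d-U and its 3 genes with the highest mean RPKM, and the 5 genes nearest in pattern to Pax7, Six2 and Eya3 at a mean of at least 5 CPM. The alternatives were DESeq2 1.42.0, no TMM, other filters, the replicate number as a block, the 2 groups alone, subtraction of or a model term for reads on silent families, each library left out, and, chosen after seeing the data, omission of the 4 libraries where these reads passed 0.5 per kb. The study states that sorted batches were distributed at random over the conditions, and which libraries share a batch is not given in the sources used here.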

Additional observations from a re-analysis of the deposited data

How the results depend on the processing

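Over the 13 calls of a member, 140 of 271 alternative values kept the call, 131 lost it and 0 changed direction. The members called in 2+3d-C against 5d-U, 2d-U and F, 5d-U against 2d-U, and 2d-U and 5d-U against F numbered 3, 3, 1, 0, 5 and 1. DESeq2 called 7, 2, 1 and 3 in the second, the third, the fourth and the sixth of these, and 4 in the first. In the fifth it also called 5, with Eya1 in place of Pax7. The second had Six4 and Eya2 without a filter, and Pax7, Six4 and Eya1 with at least 5 CPM. With the 2 groups alone the first, the second and the sixth became 0, 1 and 2, with at least 5 CPM the last 2 became 3 and 2, without a filter the fourth became 1, and without TMM the sixth became 0. With a model term for silent-family reads the first, the third and the fifth became 0, 0 and 1, and without those 4 libraries all were 0. Leaving out 1 library gave 0 to 3, 0 to 2, 0 to 2, 0 to 1, 1 to 5 and 0 to 2.

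The replicate number as a block, with 2 residual degrees of freedom, called 0 members in all comparisons but 2+3d-C against F, where it called 1. Over the tested genes, same-numbered libraries did not deviate together from their group means (r from -0.424 to 0.0322). These deviations include the reads on silent families, which differ between libraries of 5d-U and of F, so they cannot show whether libraries shared a batch. The numbers are not stated to mark a batch and were not taken as pairs. With this block 2 values that had not passed, among the 16 such comparisons of a member whose libraries did not overlap, changed direction: Eya2 in 2+3d-C against 5d-U, to -1.36 (adjusted p = 0.741), and Six5 in 5d-U against F, to 1.24 (0.802). Among the 25 comparisons of a member that had not passed and whose libraries overlapped, 31 of 514 values changed direction over all alternatives, Six5 with the block among them.

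Other genes of the 4 lists called numbered 9, 12, 4, 2, 17 and 7. DESeq2 gave 15, 13 and 6 in the first, the third and the fourth. The block gave 4, 1, 5 and 1 in the second, the fourth, the fifth and the sixth. Without TMM the third and the fourth were 2 and 1, and without a filter 9 and 4. Subtraction gave 1 and 9 in the fourth and the fifth, the model term 0, 0 and 8 in the third to the fifth, and at least 5 CPM 10 in the fifth. Without the 4 libraries the first and the third to the sixth were 3, 0, 1, 4 and 1. Leaving out 1 library gave 6 to 12, 7 to 13, 1 to 18, 0 to 5, 7 to 22 and 4 to 8. Over all genes, the 5110, 5573, 1449, 479, 9922 and 4643 calls became 7693, 7597, 5086, 3398, 12659 and 6558 with DESeq2, 3826, 1926, 1960, 675, 2739 and 1261 with the block, and 1138, 3325, 19, 11, 1695 and 173 without the 4 libraries. Without a filter the third and the fourth of these became 2794 and 2066, with at least 5 CPM the third to the fifth 788, 311 and 4941, without TMM the fourth 171, with subtraction 132, with the 2 groups alone 768, and with the model term the first and the third to the fifth 3115, 205, 41 and 5144. Leaving out 1 library gave 3065 to 5267, 3761 to 5651, 248 to 10063, 153 to 1334, 5060 to 16533 and 3028 to 5287. The causes of these differences were not tested. Six5 had 0 to 278 reads a library, with 80, 0 and 278 in replicates 1, 2 and 3 of 2d-U. The part of counting error in its values was not tested.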
